A study of Saccharomyces cerevisiae with 16 samples.

Results

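The carnitine shuttle of yeast is described here through 5 genes, CRC1, CAT2, YAT1, YAT2 and AGP2, out of 5449 genes named on the arrays. A probe set was taken as a member when the probe-to-gene table gave it one of these symbols, and each of the 5 genes had 1 probe set among 5716. The arrays came from chemostat cultures at steady state, in which the rate of a continuous feed sets the growth rate and 1 nutrient is limiting. Cultures of a mutant strain (SCE088) and of a reference strain (SCE090) were grown on ethanol or on glucose, with either ammonium sulfate or that carbon source as the limiting nutrient. The 8 groups, with 2 arrays each, are therefore the nitrogen-limited and ethanol-limited cultures on ethanol and the nitrogen-limited and glucose-limited cultures on glucose, for each strain. The labels do not name the altered gene of the mutant, nor do they say whether the medium held carnitine.

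Acetyl-CoA cannot cross the membranes of peroxisomes or mitochondria. In the shuttle, a carnitine acetyltransferase moves the acetyl group onto carnitine, the acetylcarnitine crosses the membrane, and the acetyl group is handed back to coenzyme A on the other side. S. cerevisiae does not make carnitine and takes it up from the medium. On ethanol, acetate or fatty acids the shuttle stands beside the glyoxylate cycle as a way to bring acetyl units to the mitochondria, and its genes are known to be repressed by glucose. CRC1 encodes the carrier of the inner mitochondrial membrane for acetylcarnitine. CAT2 encodes the acetyltransferase found in both peroxisomes and mitochondria, YAT1 the one associated with the outer mitochondrial membrane and YAT2 a further acetyltransferase outside these organelles. AGP2, a plasma membrane protein of the amino acid permease family, is needed for carnitine uptake.

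The array medians lay between 11.91 and 12.01 on the log2 scale, and the Pearson correlation between both arrays of a group, across probe sets, was 0.984 to 0.997. No array was left out. As a check of the labels, MEP2, GAP1, DAL5 and DAL80, genes that yeast induces when nitrogen is scarce, were all higher under nitrogen than under glucose limitation in both strains. On ethanol 2 of these 4 were higher under nitrogen limitation in the mutant and 3 of 4 in the reference strain. Of the same 4 genes, 3 were also higher under ethanol than under glucose limitation in the mutant and 4 in the reference strain, with DAL5 at a log2 difference of 2.01 in the mutant and 1.92 in the reference strain. PCK1, FBP1 and ICL1, genes of growth on non-fermentable carbon, were all higher on ethanol than on glucose in both strains under either limitation. Expression is given as log2 intensity, and differences were tested with limma across all probe sets, a call being an adjusted p (Benjamini-Hochberg) under 0.05. The sources do not tell whether both arrays of a group stem from different cultures, so p-values measure the spread between arrays only, which may be technical. An array cannot tell a change in the share of cells that express a gene from a change in each cell.

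All 5 genes were higher on ethanol than on glucose on every array. For each of them the lowest of the 8 ethanol arrays lay above the highest of the 8 glucose arrays, a separation in this direction that 1.82% of all probe sets showed. On glucose the genes were lowest when nitrogen was limiting, whereas on ethanol the limiting nutrient made little difference. Group means spanned 4.21 on the log2 scale for CRC1 (18.5-fold), 3.11 for YAT1 (8.64-fold), 2.67 for YAT2 (6.38-fold), 1.39 for AGP2 (2.62-fold) and 0.57 for CAT2 (1.48-fold). Of all probe sets, 99.5% had a smaller span than CRC1 and 61.5% a smaller span than CAT2. Within a group, the 2 arrays of a gene differed by at most 0.19, the value of AGP2 in the glucose-limited reference strain.

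**Figure D1:**
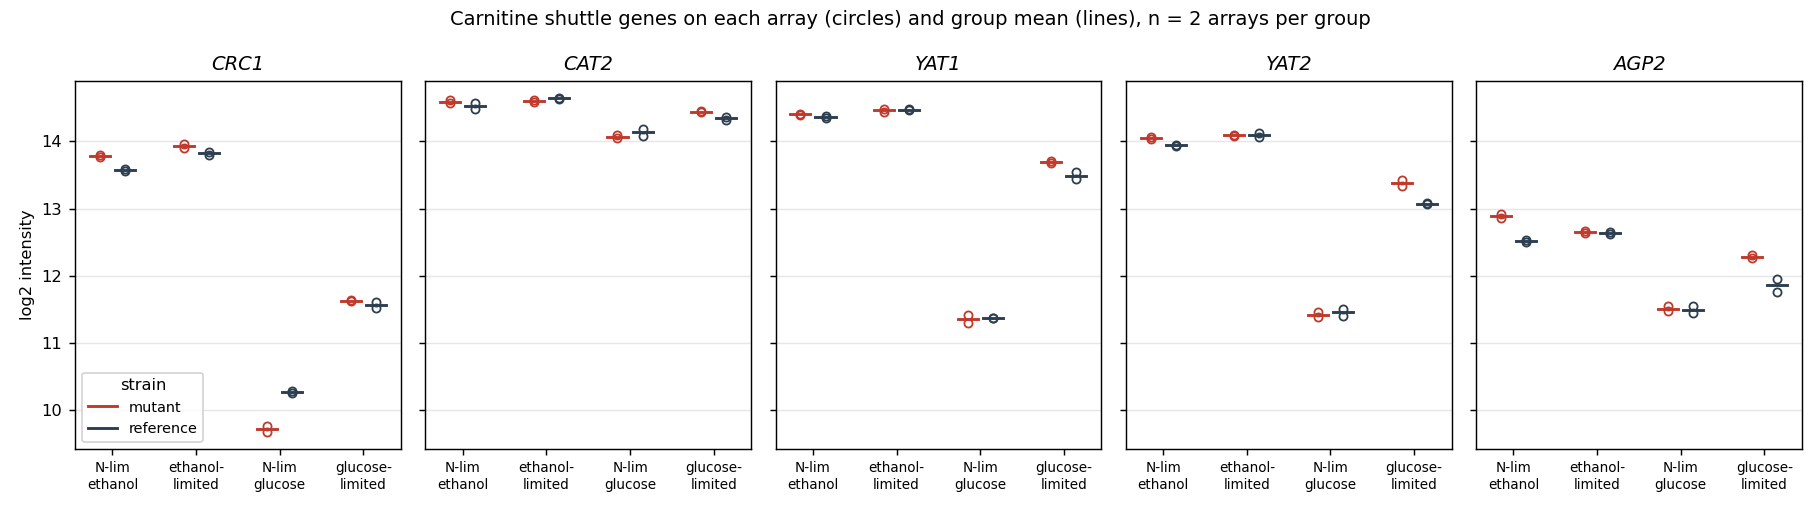
Log2 intensity of the 5 carnitine shuttle genes on each of the 16 arrays (circles) with group means (lines, n = 2 arrays per group), for the mutant (red) and the reference strain (dark) in 4 growth conditions (N-lim: nitrogen-limited). In every panel the 8 ethanol arrays lie above the 8 glucose arrays, and the nitrogen-limited glucose arrays are the lowest, with CRC1 down to 9.68.

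CRC1, the mitochondrial carrier, had the widest range of the 5 genes. On ethanol its log2 intensities were 13.79 and 13.77 in the nitrogen-limited mutant and 13.59 and 13.55 in the nitrogen-limited reference strain. They were 13.96 and 13.90 in the ethanol-limited mutant and 13.84 and 13.80 in the ethanol-limited reference strain. On glucose they were 9.68 and 9.76 in the nitrogen-limited mutant and 10.25 and 10.28 in the nitrogen-limited reference strain. In linear terms the nitrogen-limited mutant averaged 14072 ± 132 on ethanol and 844 ± 36.4 on glucose (SD, n = 2). Under glucose limitation CRC1 measured 11.62 and 11.64 in the mutant and 11.52 and 11.60 in the reference strain, in between the ethanol and the nitrogen-limited glucose arrays. No 2 groups next to each other in the order of CRC1 means overlapped, although the smallest gap, between the ethanol-limited reference strain and the nitrogen-limited mutant on ethanol, was only 0.040. With 2 arrays per group this is common. In the 12 comparisons between pairs of groups, 42.4% to 81.5% of all probe sets did not overlap.

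YAT1 and YAT2, which encode the acetyltransferases outside the matrix, followed a common course. YAT1 measured 14.41 and 14.40 in the nitrogen-limited mutant on ethanol and 11.30 and 11.41 in the same strain on glucose. In the nitrogen-limited reference strain it measured 14.37 and 14.34 on ethanol and 11.38 on both glucose arrays. The carbon-limited cultures differed less. YAT1 was at 14.44 and 14.48 in the ethanol-limited mutant, against 13.68 and 13.70 in the glucose-limited mutant. In the reference strain it was at 14.46 and 14.47 under ethanol limitation, against 13.44 and 13.55 under glucose limitation. Thus the glucose-limited arrays lay closer to the ethanol arrays for YAT1 than for CRC1.
YAT2 measured 14.06 and 14.04 in the nitrogen-limited mutant on ethanol and 11.39 and 11.46 in that strain on glucose. In the nitrogen-limited reference strain the values were 13.95 and 13.93 on ethanol and 11.40 and 11.51 on glucose. The strains could not be separated in the nitrogen-limited glucose cultures, where their arrays overlapped for both genes. Under carbon limitation YAT2 was at 14.09 on both ethanol-limited arrays of the mutant, against 13.43 and 13.34 on its glucose-limited arrays. In the reference strain it was at 14.13 and 14.07 under ethanol limitation, against 13.08 and 13.06 under glucose limitation. Across the 8 group means, the Pearson correlation of YAT1 with YAT2 was 0.998, the highest of the 10 pairs of members, and the lowest was 0.936, for YAT1 with AGP2. These correlations rest on 8 means that share the carbon source difference, and they are given as a description.

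CAT2, the acetyltransferase of peroxisomes and mitochondria, was bright on every array and varied least. It measured 14.57 and 14.61 in the nitrogen-limited mutant on ethanol and 14.57 and 14.49 in the nitrogen-limited reference strain on ethanol. Under ethanol limitation it measured 14.58 and 14.61 in the mutant and 14.63 and 14.65 in the reference strain. The glucose arrays were lower by a small margin. They stood at 14.09 and 14.05 in the nitrogen-limited mutant and at 14.18 and 14.09 in the nitrogen-limited reference strain. Under glucose limitation CAT2 was at 14.45 and 14.43 in the mutant and at 14.32 and 14.37 in the reference strain. The brightest probe set of an array reached 14.98 to 15.13, and CAT2 came within 0.36 of that maximum, YAT1 within 0.52, YAT2 within 0.85, CRC1 within 1.09 and AGP2 within 2.10. Whether the signals of the brightest probe sets were limited by the scanner or by the probes was not tested.

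AGP2, the protein of carnitine uptake, had its highest values in the nitrogen-limited mutant on ethanol, at 12.91 and 12.85, against 12.53 and 12.51 in the reference strain. Under ethanol limitation it measured 12.63 and 12.66 in the mutant and 12.62 and 12.65 in the reference strain, with overlapping arrays. On glucose the nitrogen-limited arrays overlapped between the strains as well, with 11.47 and 11.56 in the mutant and 11.44 and 11.55 in the reference strain. Under glucose limitation AGP2 measured 12.30 and 12.26 in the mutant and 11.76 and 11.95 in the reference strain. AGP2 was thus the only one of the 5 genes whose highest group was nitrogen-limited.

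The first question of the design is how expression depends on the carbon source. Under nitrogen limitation, all 5 genes rose on ethanol relative to glucose in both strains, where by the same test 19.5% of all probe sets were higher in the mutant and 17.7% in the reference strain. CRC1 was 16.7-fold higher on ethanol in the mutant (log2 difference 4.06, standard error 0.044, limma adjusted p = 8.04e-13) and 9.86-fold higher in the reference strain (3.30, 0.044, adjusted p = 8.48e-12). These differences ranked 13 and 12 from the top among the 5716 probe sets. YAT1 was 8.26-fold higher in the mutant and 7.90-fold higher in the reference strain, and YAT2 was 6.17-fold higher in the mutant and 5.59-fold higher in the reference strain. AGP2 rose 2.59-fold in the mutant and 2.03-fold in the reference strain. CAT2 rose 1.43-fold in the mutant (log2 difference 0.52, adjusted p = 7.84e-06) and 1.31-fold in the reference strain (0.39, adjusted p = 9.11e-05). The median log2 difference of the 5 genes was 2.63 in the mutant and 2.48 in the reference strain, beside -0.02 and 0.02 over all probe sets.

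Under carbon limitation all 5 genes were again higher on ethanol in both strains, where 16.2% of all probe sets were higher in the mutant and 11.3% in the reference strain. CRC1 rose 4.91-fold in the mutant (log2 difference 2.30, 95% interval 2.20 to 2.40) and 4.78-fold in the reference strain (2.26, 2.16 to 2.36), which ranked 7 and 8 from the top. YAT1 rose 1.70-fold in the mutant and 1.97-fold in the reference strain. YAT2 rose 1.63-fold in the mutant and 2.04-fold in the reference strain, and AGP2 1.29-fold in the mutant and 1.71-fold in the reference strain. CAT2 differed by 0.16 in the mutant (adjusted p = 0.0252) and by 0.30 in the reference strain (adjusted p = 0.000972). The CAT2 call in the mutant was lost after quantile normalization (adjusted p = 0.0554), after median centring (0.129) and without any one of the 4 arrays compared (0.0544 to 0.125). When the fit held only the arrays being compared, the CAT2 calls were lost in both strains (adjusted p = 0.0692 in the mutant and 0.0553 in the reference strain).

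The next question is how expression depends on the limiting nutrient. On glucose, all 5 genes fell under nitrogen limitation relative to glucose limitation in both strains, where 23.6% of all probe sets were lower in the mutant and 22.2% in the reference strain. YAT1 fell by 2.34 on the log2 scale in the mutant and fell by 2.11 in the reference strain (standard error 0.047 each). YAT2 fell by 1.96 in the mutant and fell by 1.61 in the reference strain. CRC1 fell by 1.91 in the mutant and fell by 1.29 in the reference strain, a larger gap between the strains than for the other genes. AGP2 fell by 0.77 in the mutant and fell by 0.36 in the reference strain, and CAT2 fell by 0.37 in the mutant and fell by 0.21 in the reference strain. The median of the 5 differences was -1.91 in the mutant and -1.29 in the reference strain, beside 0.00 over all probe sets in each. With only the 4 reference arrays compared, AGP2 (adjusted p = 0.0658) and CAT2 (0.114) missed the threshold in the reference strain.

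On ethanol the limiting nutrient changed the shuttle genes little. Of all probe sets, 14.3% were called in either direction in the mutant and 8.21% in the reference strain, against 48.8% and 43.6% on glucose. In each strain 1 of the 5 genes was called between nitrogen and ethanol limitation. An unadjusted limma p under 0.05 was reached by 2 of them in the mutant and 4 in the reference strain. The median of the 5 differences was -0.04 in the mutant and -0.12 in the reference strain, beside -0.03 and 0.02 over all probe sets. In the mutant it was AGP2 (6.53% of all probe sets were higher), which rose by 0.24 (standard error 0.063, adjusted p = 0.032). That call was lost without any one of the 4 arrays compared (adjusted p = 0.0998 to 0.136) and with only those 4 arrays in the fit (0.0927). In the reference strain it was CRC1 (3.59% of all probe sets were lower), which fell by 0.25 (standard error 0.044, adjusted p = 0.00631). That call was lost without ethanol-limited replicate 1 (adjusted p = 0.0566) and with only the arrays compared (0.176).
For the other genes the intervals of the difference are narrow. In the mutant the 95% interval was -0.25 to -0.05 for CRC1, which passed the threshold after quantile normalization (adjusted p = 0.0347), with an offset of 64 added before log2 (0.049), among the brighter probe sets (0.0431) and with a replicate block within each strain (0.0309). It was -0.11 to 0.10 for CAT2, -0.16 to 0.05 for YAT1 and -0.15 to 0.07 for YAT2. In the reference strain it was -0.21 to -0.01 for CAT2, -0.21 to -0.0038 for YAT1, -0.26 to -0.05 for YAT2 and -0.26 to 0.02 for AGP2. YAT2 there passed the threshold after quantile normalization (adjusted p = 0.0475) and after median centring (0.0461).

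**Figure D2:**
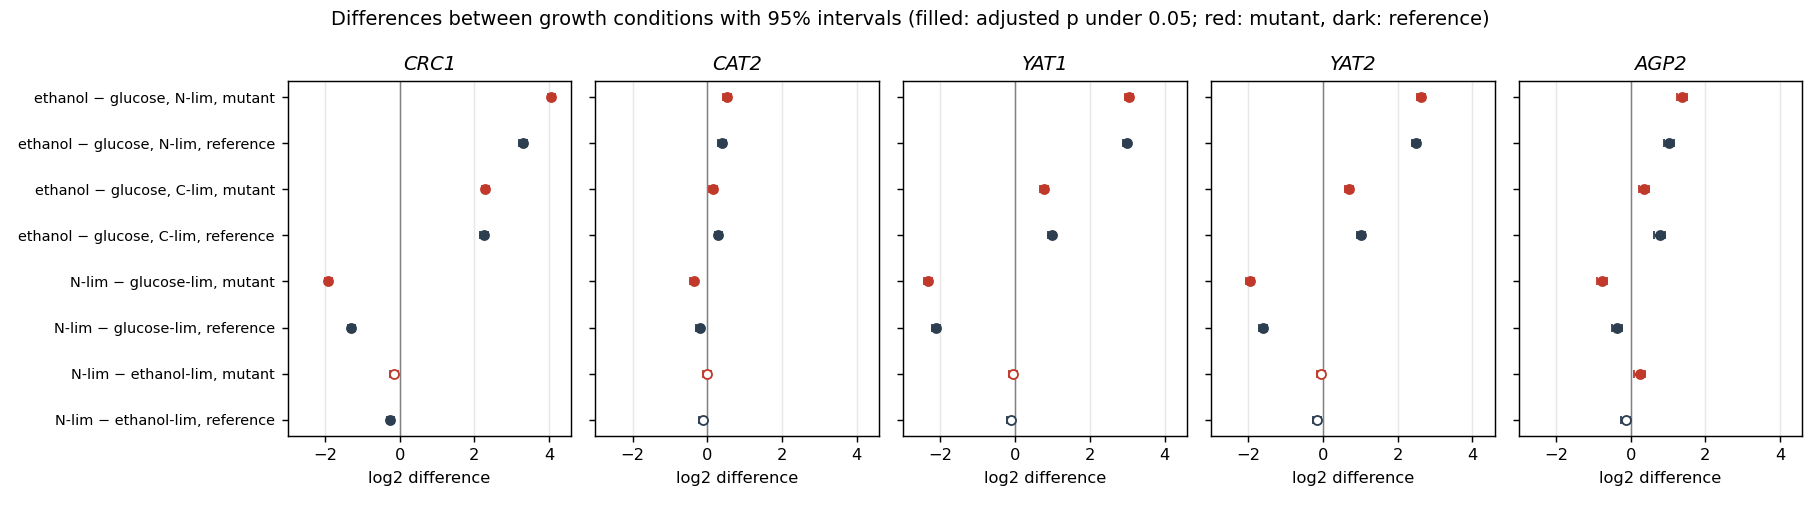
Log2 differences of each gene between growth conditions (points) with 95% confidence intervals from limma, for the mutant (red) and the reference strain (dark); filled points have an adjusted p under 0.05, and C-lim stands for carbon-limited. The ethanol against glucose differences reach 4.06 for CRC1, while the nitrogen against ethanol limitation differences stay between -0.25 and 0.24 for all 5 genes.

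The unequal response to nitrogen limitation on both carbon sources was tested itself, as the change from carbon to nitrogen limitation on ethanol minus the same change on glucose. In the mutant this interaction passed the threshold for all 5 genes, each above 0, where 16% of all probe sets were called in this direction. In the reference strain it did for CRC1, YAT1 and YAT2, where 14% of all probe sets were called. YAT1 had the largest interaction, 2.28 in the mutant and 2.01 in the reference strain (standard error 0.066 each). It was followed in the mutant by YAT2 (1.92) and CRC1 (1.76) and in the reference strain by YAT2 (1.46) and CRC1 (1.04). The YAT1 group means on ethanol were 14.36 to 14.47, near the brightest probe sets, and whether signals were limited there was not tested. The interaction of AGP2 was 1.01 in the mutant and 0.24 in the reference strain, and that of CAT2 was 0.36 in the mutant and 0.10 in the reference strain. AGP2 in the reference strain missed the threshold (adjusted p = 0.0736) but passed it after quantile normalization (0.0433), after median centring (0.0407) and without glucose-limited replicate 1 (0.0139).

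The last question is how the strains differ. Under ethanol limitation none of the 5 genes differed between the mutant and the reference strain by limma, with 1 at an unadjusted p under 0.05, while 24.8% of all probe sets were called. That gene was CRC1, at a log2 difference of 0.11 (95% interval 0.01 to 0.21, adjusted p = 0.103), which passed the threshold after quantile normalization (0.0321). For the other 4 genes the intervals lay between -0.14 and 0.15. Under nitrogen limitation on ethanol, AGP2 was 1.29-fold higher in the mutant (log2 difference 0.37, standard error 0.063, adjusted p = 0.00362) and CRC1 1.16-fold higher (0.21, 0.044, adjusted p = 0.0107). Together they are 2 of 5 genes, where 5.65% of all probe sets were higher. The CRC1 call was lost without reference replicate 2 (adjusted p = 0.0551), mutant replicate 1 (0.0678) or mutant replicate 2 (0.061), and both calls were lost with only the arrays compared (0.103 for CRC1 and 0.0614 for AGP2). YAT2 stood at 0.11 (adjusted p = 0.162) and passed the threshold after median centring (0.0422).

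Under glucose limitation 3 of 5 genes were higher in the mutant, where 9.41% of all probe sets were. AGP2 was 1.34-fold higher (log2 difference 0.43, adjusted p = 0.00169), YAT2 1.24-fold higher (0.31, adjusted p = 0.00204) and YAT1 1.15-fold higher (0.20, adjusted p = 0.0163). The YAT1 call was lost without reference replicate 1 (adjusted p = 0.0974), mutant replicate 1 (0.0642) or mutant replicate 2 (0.0894). With only the arrays compared all 3 calls were lost (adjusted p = 0.0706 for AGP2, 0.0665 for YAT2 and 0.136 for YAT1). CRC1 differed by 0.07 (95% interval -0.03 to 0.17) and CAT2 by 0.10 (-0.0021 to 0.20). Under nitrogen limitation on glucose, CRC1 alone of the 5 was called, at 0.68-fold in the mutant (log2 difference -0.55, standard error 0.044, adjusted p = 1.6e-05), where 11.1% of all probe sets were lower. The intervals of the other 4 genes lay between -0.16 and 0.16.

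**Figure D3:**
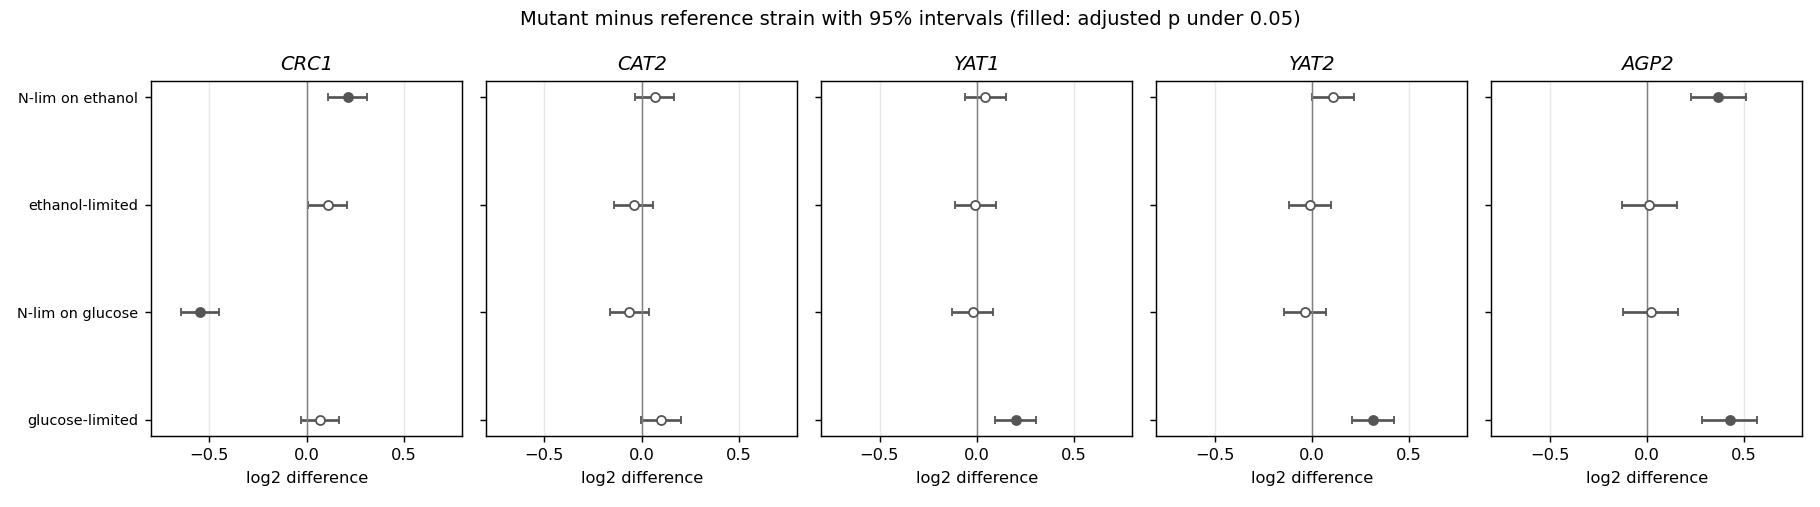
Mutant minus reference log2 differences of each gene in the 4 growth conditions, with 95% confidence intervals from limma and filled points for an adjusted p under 0.05. CRC1 is lower in the mutant under nitrogen limitation on glucose (-0.55) and higher under nitrogen limitation on ethanol (0.21), and the ethanol-limited differences all lie between -0.04 and 0.11.

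Whether the strains respond unequally was tested as a difference of differences. On glucose, the fall under nitrogen limitation was larger in the mutant for 4 of 5 genes, where 10.5% of all probe sets were called in this direction. The interaction was -0.62 for CRC1 (adjusted p = 9.2e-05), -0.41 for AGP2 (0.00959), -0.35 for YAT2 (0.0055) and -0.22 for YAT1 (0.0403). With only the 8 arrays compared the AGP2 (0.0629) and YAT1 (0.138) calls were lost. The YAT1 call was also lost without reference glucose-limited replicate 1 (0.125), either nitrogen-limited reference array (0.0857 and 0.073), either glucose-limited mutant array (0.0846 and 0.109) or mutant nitrogen-limited replicate 1 (0.137). CAT2 stood at -0.16 (adjusted p = 0.105) and passed with the variance trend of eBayes (0.0446), with a replicate block within each strain (0.046) and without nitrogen-limited reference replicate 2 (0.046). On ethanol, 1 of 5 genes was called, with 2.34% of all probe sets called in this direction. It was AGP2, at 0.36 (adjusted p = 0.0446), a call that was lost without any one of the 8 arrays (0.0868 to 0.123) and with only those arrays (0.0501).
The effect of ethanol against glucose also differed between the strains for some of the genes. Under carbon limitation it was smaller in the mutant for AGP2 (-0.41, adjusted p = 0.00907) and YAT2 (-0.32, adjusted p = 0.00809), 2 of 5 genes where 11.1% of all probe sets were called in this direction. YAT1 stood at -0.21 (adjusted p = 0.0515) and passed after quantile normalization (0.018), after median centring (0.0192), among the brighter probe sets (0.0424), with the replicate block over both strains (0.049) or within each strain (0.0234), with the variance trend (0.03) and without reference glucose-limited replicate 2 (0.0299). The interaction under carbon limitation and that of strain by limitation on glucose share the glucose-limited strain difference, so they are not separate findings. That difference was 0.43 for AGP2, 0.31 for YAT2 and 0.20 for YAT1. Under ethanol limitation these genes differed by -0.01 to 0.01 between the strains, and under nitrogen limitation on glucose by -0.03 to 0.02. Under nitrogen limitation the effect of ethanol was larger in the mutant for CRC1 (0.76, adjusted p = 8e-05), 1 of 5 genes where 2.9% of all probe sets were called. AGP2 stood at 0.35 (adjusted p = 0.0503) and passed after quantile normalization (0.0124), after median centring (0.0201), with the offset (0.0472), among the brighter probe sets (0.0367), with a replicate block within each strain (0.043), with the variance trend (0.0453) and without nitrogen-limited reference replicate 1 (0.0499).

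Of 6 genes that supply acetyl-CoA from ethanol and acetate, all 6 rose on ethanol under nitrogen limitation in both strains. Their median log2 difference was 1.40 in the mutant and 1.04 in the reference strain. Of all probe sets, 19.5% were higher in the mutant and 17.7% in the reference strain in that comparison. ADH2, the alcohol dehydrogenase that oxidizes ethanol, differed by 5.21 in the mutant and 4.87 in the reference strain. ACS1, an acetyl-CoA synthetase, differed by 2.88 in the mutant and 2.27 in the reference strain, and ACH1, a mitochondrial CoA transferase, by 1.55 in the mutant and 1.28 in the reference strain. Under carbon limitation ADH2 differed by only 0.08 in the mutant (limma adjusted p = 0.445) and 0.23 in the reference strain (0.0455). Of the 6 genes, ALD4 was lower on ethanol there in the mutant (-0.41) and not called in the reference strain (-0.04). ALD6, ACS1, ACS2 and ACH1 were higher in both, where 16.2% of all probe sets were higher in the mutant and 11.3% in the reference strain. On glucose, ADH2 differed by -5.21 in the mutant and -4.89 in the reference strain between nitrogen and glucose limitation. Under nitrogen limitation, 9 of 10 genes of the glyoxylate cycle and gluconeogenesis rose on ethanol and 1 fell in each strain. Their medians were 1.74 in the mutant and 1.16 in the reference strain. Of all probe sets, 19.5% were higher and 23% lower in the mutant, and 17.7% higher and 15.9% lower in the reference strain. SFC1, the succinate-fumarate carrier of mitochondria, differed by 5.94 in the mutant and 4.97 in the reference strain, and FBP1, fructose bisphosphatase, by 5.45 in the mutant and 4.32 in the reference strain. CIT2, the peroxisomal citrate synthase whose citrate can also carry acetyl units out of the peroxisome, differed by 0.95 in the mutant and 0.99 in the reference strain. DIC1, the dicarboxylate carrier, was the gene that fell (-0.22 in the mutant and -0.37 in the reference strain).

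Peroxisomal beta-oxidation is the source of peroxisomal acetyl-CoA when fatty acids are burned, and 13 genes of this pathway and its supporting steps were listed. Under nitrogen limitation on ethanol against glucose, 13 rose in the mutant and 12 in the reference strain. Their medians were 0.96 in the mutant and 0.87 in the reference strain. Of all probe sets, 19.5% were higher in the mutant and 17.7% in the reference strain. Under ethanol against glucose limitation, 10 of the 13 genes fell and 1 rose in the mutant, with a median of -0.71. There 15.7% of all probe sets were lower and 16.2% higher. Of the 13, 6 rose in the reference strain and none fell by limma, with a median of 0.19. In that strain 11.3% of all probe sets were higher and 13% lower. All 5 shuttle genes were higher on ethanol in that comparison in both strains. Set between the strains under ethanol limitation, 12 of 13 genes were lower in the mutant, with a median of -0.72, where 12.6% of all probe sets were lower, and the count was also 12 after quantile normalization and after median centring. POX1, the acyl-CoA oxidase of the first step, differed by -0.98, IDP3, the peroxisomal isocitrate dehydrogenase, by -0.95, and FOX2, the multifunctional enzyme, by -0.83. None of the 5 shuttle genes was called by limma in the same comparison, with a median of -0.01, and the median over all probe sets was 0.02. The difference between the lists was not tested.

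**Figure D4:**
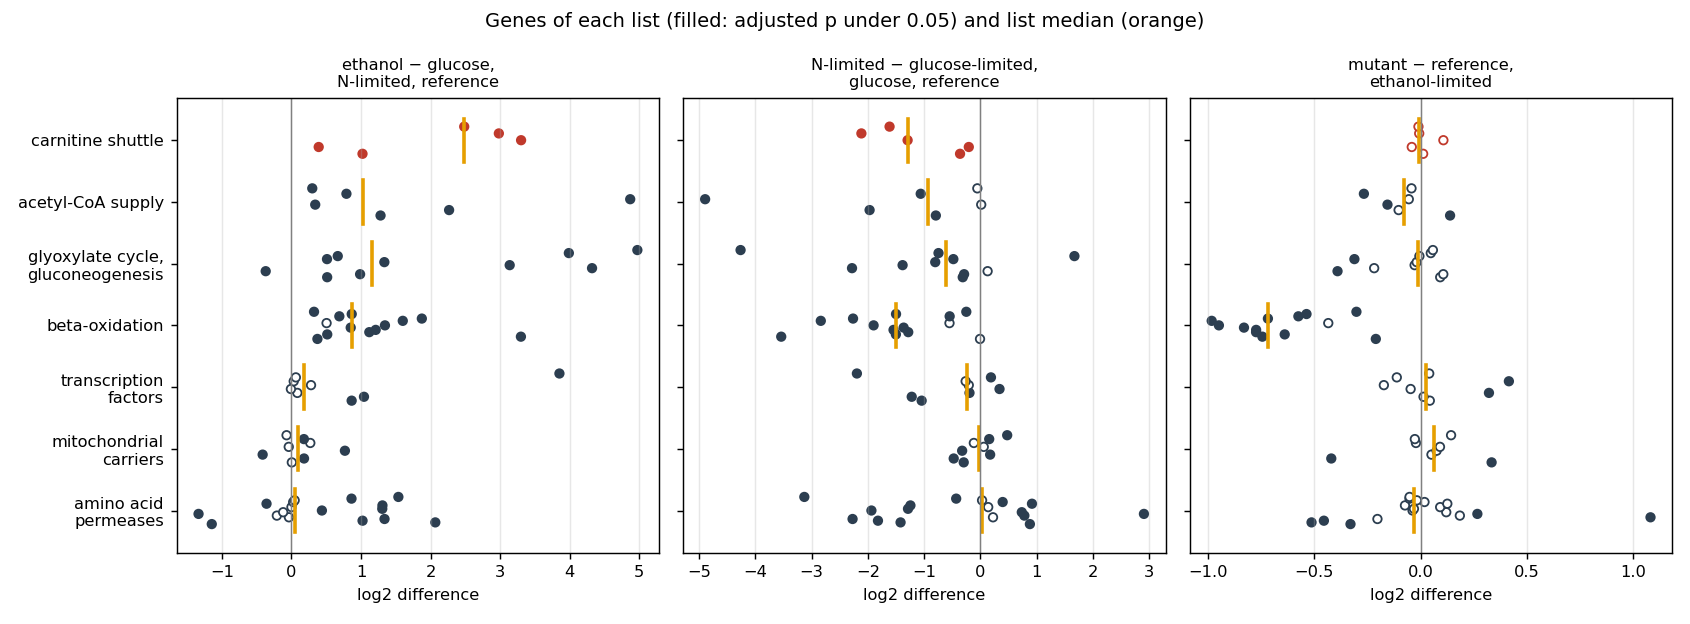
Log2 differences of single genes (points, filled for an adjusted p under 0.05) and list medians (orange lines) for the carnitine shuttle (red) and 6 lists of related genes (dark), in 3 comparisons. The shuttle genes have a median of 2.48 on ethanol against glucose under nitrogen limitation in the reference strain, and in the ethanol-limited mutant beta-oxidation genes lie at a median of -0.72 while the shuttle genes lie at -0.01.

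Among 8 transcription factor genes of non-fermentable carbon, oleate and retrograde responses, 4 rose on ethanol under nitrogen limitation in the mutant and 3 in the reference strain. None fell by limma in either. Of all probe sets, 19.5% were higher in the mutant and 17.7% in the reference strain. SIP4, an activator of gluconeogenic genes that binds the carbon source response element, differed by 4.07 in the mutant and 3.85 in the reference strain. CAT8, which acts upstream of SIP4 at the same element, differed by 2.05 in the mutant and 1.04 in the reference strain, and ADR1, an activator of ADH2 and of peroxisomal genes, by 1.65 in the mutant and 0.87 in the reference strain. Under nitrogen limitation on glucose, the mutant was lower than the reference strain for CAT8 (-0.999) and ADR1 (-0.93). There CRC1 differed by -0.55, SIP4 by -0.03, YAT1 by -0.02 and YAT2 by -0.03. In the same comparison FBP1 differed by -1.06, ICL1 by -0.04 and PCK1 by -0.06. Of the 6 acetyl-CoA supply genes, ACS1 (-0.57), ALD4 (-0.40), ACH1 (-0.21) and ALD6 (-0.20) were called lower. ADH2 and ACS2 were not called, and 11.1% of all probe sets were lower. Whether any of these differences are linked was not tested. OAF1 and PIP2, which encode the oleate-responsive factors, did not pass the threshold on ethanol against glucose in either strain. OAF1 stood at -0.12 in the mutant and -0.01 in the reference strain under nitrogen limitation, and PIP2 at 0.45 in the mutant and 0.28 in the reference strain.
Some relatives of the transporters rose and some fell on ethanol under nitrogen limitation. In this comparison 19.5% of all probe sets were higher and 23% lower in the mutant. In the reference strain 17.7% were higher and 15.9% lower. Of 8 other mitochondrial transport proteins, most of them of the family of CRC1 and with MPC1 of another, 4 rose and 1 fell on ethanol under nitrogen limitation in the mutant, and 3 rose and 1 fell in the reference strain. ODC1, a carrier of oxodicarboxylates, differed by 1.48 in the mutant and 0.77 in the reference strain. Of 17 amino acid permease relatives of AGP2, 8 rose and 3 fell in each strain, with medians of 0.24 in the mutant and 0.05 in the reference strain. AGP3 was at the top in both (2.15 in the mutant and 2.07 in the reference strain) and AGP1 was among those that fell (-1.23 in the mutant and -1.15 in the reference strain). HNM1, the choline transporter that also carries carnitine, differed by -0.20 in the mutant (not past the threshold) and fell by 0.34 in the reference strain, opposite to AGP2.

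The genes with the most similar courses were sought among 787 probe sets whose group means spanned at least 1 on the log2 scale, by Pearson correlation over the 8 group means. All of them share the large carbon source difference, so the correlations describe these arrays and carry no test. For CRC1 they were ICL1 (0.995), which encodes isocitrate lyase of the glyoxylate cycle, FBP1 (0.990), RKI1 (0.984), which encodes ribose-5-phosphate ketol-isomerase, CIT2 (0.983) and SIP2 (0.982), a subunit of the Snf1 kinase complex. For YAT1 they were YAT2 (0.998), PRM4 (0.997), SIP4 (0.993), ACH1 (0.992) and SFC1 (0.990). YAT2 shared YAT1, SIP4 (0.998), ACH1 (0.993) and PRM4 (0.993) with it, followed by YGR067C (0.986). For AGP2 they were TAT1 (0.981), an amino acid permease, BIO5 (0.977), which takes part in biotin metabolism, YAR068W (0.973), CIT2 (0.969) and SIP4 (0.967). CAT2 spanned less than 1 and was not searched.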

How the data were processed

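Total RNA of 16 chemostat samples was measured on Affymetrix yeast arrays. The values are intensities per probe set, deposited by the authors on a linear scale after normalization across arrays with GCRMA, named without a version, whose output is normally log2. How they were brought to a linear scale is not stated in the sources used here. No per-sample column was left out.

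The log2 of each value was taken with no offset (lowest value 1, in 5 values). Of 5716 probe sets, 5498 have a gene symbol and 218 have none, and 12 symbols were updated through the RefSeq gene table. With limma 3.58.1 (R 4.3.3), 1 model of the 8 group means was fitted over the 16 arrays (8 residual and 2.01 prior degrees of freedom), and 18 comparisons, 12 between pairs of groups and 6 interactions, were tested, with p-values adjusted by Benjamini-Hochberg across every probe set. The method was tested on simulated data with noise independent between arrays, so deviations shared by arrays of the same replicate number were not covered. The alternatives were quantile normalization, median centring, an offset of 64, the brighter 75% of probe sets, only the arrays compared, the replicate number as a block (over both strains and, added after seeing the data, within each strain), a variance trend, and leaving out each array. All 5 members were named, and from the 71 genes of the related lists up to 3 per list and strain with the largest difference past the threshold between conditions; CIT2, DIC1, OAF1, PIP2, HNM1, DAL5, MPC1 and the genes named for strain differences were chosen after their values were seen. The members and lists were chosen with earlier results of these data known. Sequences of promoters and proteins were not analysed here. For the glucose-limited reference strain, titles and descriptions number the arrays in opposite ways, and the title's number was used. The number of arrays limits the precision.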

Additional observations from a re-analysis of the deposited data

Results flagged for a closer look

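The 6 interactions were tested for each of the 5 shuttle genes. In 16 of these tests the effect of 1 factor on a shuttle gene differed with another factor. The interactions are built from the same 8 group means, so the 16 are not separate findings. Depending on the interaction, 2.34% to 16% of all probe sets were called in the direction of these genes. The effect of nitrogen limitation was higher on ethanol than on glucose in the mutant by 1.76 for CRC1, 0.36 for CAT2, 2.28 for YAT1, 1.92 for YAT2 and 1.01 for AGP2 on the log2 scale. In the reference strain the same difference was 1.04 for CRC1, 2.01 for YAT1 and 1.46 for YAT2. On glucose, the effect of nitrogen limitation in the mutant minus that in the reference strain was -0.62 for CRC1, -0.22 for YAT1, -0.35 for YAT2 and -0.41 for AGP2, and on ethanol it was 0.36 for AGP2. The effect of ethanol against glucose in the mutant minus that in the reference strain was -0.32 for YAT2 and -0.41 for AGP2 under carbon limitation and 0.76 for CRC1 under nitrogen limitation. With only the arrays compared, the strain by limitation calls were lost for YAT1 and AGP2 on glucose and for AGP2 on ethanol. Calls that depended on single arrays are given with these interactions above. No group held enough arrays for a test of single arrays.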

How the results depend on the processing

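Direction and call of the 5 genes on ethanol against glucose under nitrogen limitation were kept in both strains under every alternative run, and the number of genes called was 5 in each. Within the reference strain, the replicate differences of the groups correlated at -0.682 to 0.655 with the numbers of the titles (3 of 6 pairs above 0.1) and at 0.354 to 0.682 with those of the descriptions (6 of 6), which differ in the glucose-limited arrays only. Within the mutant they correlated at 0.0227 to 0.294 (5 of 6 above 0.1). With the title's number as 1 replicate block for both strains, the count of genes called differed only for the strain by carbon source interaction under carbon limitation, where it was 3 rather than 2 with YAT1 (-0.21) added. A replicate block within each strain with the description's number was added after seeing the data. It lost no call of the 5 genes, and gave 2 rather than 1 for nitrogen against ethanol limitation in the mutant (CRC1 added), 5 rather than 4 for the strain by limitation interaction on glucose (CAT2 added), 3 rather than 2 for the strain by carbon source interaction under carbon limitation (YAT1 added) and 2 rather than 1 for that under nitrogen limitation (AGP2 added).

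With only the arrays compared, the number of genes called was 3 rather than 5 for nitrogen against glucose limitation in the reference strain, and 2 rather than 4 for the strain by limitation interaction on glucose. It was 0 for nitrogen against ethanol limitation in the mutant and in the reference strain, for mutant against reference under glucose limitation and under nitrogen limitation on ethanol, and for the strain by limitation interaction on ethanol. Fewer arrays leave fewer residual degrees of freedom. Quantile normalization gave 2 genes rather than 1 for nitrogen against ethanol limitation in either strain and 1 rather than 0 between ethanol-limited strains. Median centring gave 2 rather than 1 for nitrogen against ethanol limitation in the reference strain, and the offset and the brighter probe sets 2 rather than 1 in the mutant. For the strain by carbon source interaction under nitrogen limitation, both scalings, the offset, the brighter probe sets and the variance trend each gave 2 rather than 1. Calls that changed in further comparisons, such as CAT2 on ethanol against glucose under carbon limitation, are given with those comparisons above. The cause of these changes was not tested.

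Without single arrays the number called ran from 0 to 1 for nitrogen against ethanol limitation in the reference strain, was 0 in the mutant, ran from 2 to 3 and from 1 to 2 between the strains under glucose limitation and under nitrogen limitation on ethanol, and was 0 for the strain by limitation interaction on ethanol. It ran from 1 to 2 for the strain by carbon source interaction under nitrogen limitation. The number called also changed for ethanol against glucose under carbon limitation in the mutant and for the carbon source by limitation interaction in the reference strain. It changed as well for the strain by limitation interaction on glucose and the strain by carbon source interaction under carbon limitation. The lone array left in a group is assumed to vary like the others.

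Signs turned only for values near 0 that did not pass the threshold. For nitrogen against ethanol limitation in the mutant, CAT2 stood at 0.033 after quantile normalization, 0.049 after median centring and -0.025 to 0.016 without single arrays, and YAT2 at 0.015 after median centring. Between the strains under nitrogen limitation on glucose, YAT1 stood at 0.00078 after median centring and -0.075 to 0.032 without single arrays, AGP2 at -0.034 to 0.072 and YAT2 at -0.088 to 0.020. Between the ethanol-limited strains AGP2 stood at -0.011 after median centring and -0.0047 to 0.029 without single arrays, YAT1 at 0.00085 after quantile normalization and -0.030 to 0.017, and YAT2 at -0.042 to 0.022. CRC1 in the strain by carbon source interaction under carbon limitation stood at -0.0033 to 0.080.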
